A study of Mus musculus with 21 samples.

Results

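Mouse CD8 T cells cultured with a low dose of IL-2v were compared on day 5 with the same cells cultured with a 10-fold higher dose of IL-15. The IL-2v culture (5 IU/mL) gave 1 library of 4747 cells and the IL-15 culture (50 IU/mL) gave 1 library of 5809 cells, together 10556 of the 106456 cells in the 21 libraries of the series. All cells of both libraries were used. The pair was chosen by its measured values: in an earlier reading of these data both libraries differed from the culture without cytokine by a similar overall amount. The size of that overall response is therefore given as a description.

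The cells were CD8 T cells of the OT1 line, mouse T cells that carry one transgenic T cell receptor for a peptide of ovalbumin. All groups were naive cells at the start, and every cultured group was activated on day 0 on beads coated with anti-CD3 and anti-CD28, a stand-in for antigen. The added cytokine was IL-2v at 5 IU/mL (its treatment label reads mutant IL-2bg), IL-15 at 50 IU/mL, or none, and the same doses of both cytokines were also sampled on days 3 and 10. The treatment label of the IL-15 library names Interleukin-16, while its title and the design text point to IL-15, which was followed. The labels also describe a sort of CD44+CD45.1+ cells from tumours; because another protocol field describes culture, the cells are taken here as cultured. Each condition had 1 library and the labels name no separate animals or cultures, so no test was possible, no p-value is given, and a difference between libraries cannot be told apart from one between cultures or preparations.

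IL-2 and IL-15 both signal through a receptor made of the IL-2 receptor beta chain (Il2rb) and the common gamma chain (Il2rg). IL-2 also binds the alpha chain (Il2ra), which raises its affinity, and IL-15 is presented by its own alpha chain. The receptor activates the kinases JAK1 and JAK3 and the transcription factor STAT5, which drives survival, division, effector molecules and its own inhibitors. Growth signals of this kind also raise glycolysis, partly through the transcription factors MYC and HIF-1, the latter known from the response to low oxygen.

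Depth was alike in both libraries. The IL-2v library held 18428827 unique molecular identifiers (UMIs, tags of single captured RNA molecules), with a median of 3491 UMIs and 1378 genes per cell. The IL-15 library held 23288848 UMIs, with a median of 3617 UMIs and 1349 genes per cell. Of the UMIs, 32.9% and 35.1% came from genes of ribosomal proteins, and 4.08% and 4.70% from the mitochondrial genome. Between them the libraries shared 13 cell barcodes, within the range of 1 to 19 over all 210 pairs of libraries. All 9 CD8 T cell markers were found in at least 5% of the cells of both. Of the B cell markers, Ms4a1 and Pax5 had no UMI in either library, which allows up to 0.0632% of IL-2v cells and 0.0516% of IL-15 cells with a UMI of each, a limit on detection and not on the number of B cells, while Ighm had a UMI in 71.9% and 76.9% of cells. The 6 B cell markers summed to 418 and 470 CPM (UMIs of a gene scaled to a fixed library total). Of the 7 myeloid markers, Lyz2, Csf1r and C1qa had no UMI, and Cst3 had one in 29.3% and 28.6%; the list summed to 96.3 and 92.9 CPM. Without the cells that carried markers of other lineages (190 and 278 cells), the comparison below gave 107 higher and 7 lower genes, against 104 and 8 with them.

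Levels of most genes were close in both libraries. Differences are given as IL-2v minus IL-15 on the log2(CPM + 1) scale of UMIs summed over cells, on which changes of low genes come out too small, and a gene was compared where it reached 20 CPM in either library. Of 5701 genes compared, 67.3% differed by less than 0.25 and 98.0% by less than 1, and the median difference was 0.07. At least 2-fold higher with IL-2v were 104 genes (1.82%), and at least 2-fold lower were 8 (0.14%). A difference of at least 4-fold was found for 11 genes, all higher with IL-2v. Over 5495 genes the root mean square difference of the pair was 0.331, rank 11 from the smallest among 210 pairs of libraries, and each library was the other's nearest. The next nearest were the IL-2v 5 IU/mL library of day 3 for the IL-2v culture (0.423) and the IL-15 5 IU/mL library of day 5 for the IL-15 culture (0.393). The plot of levels in the pair shows most genes near the diagonal and the few that left it.

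**Figure D1:**
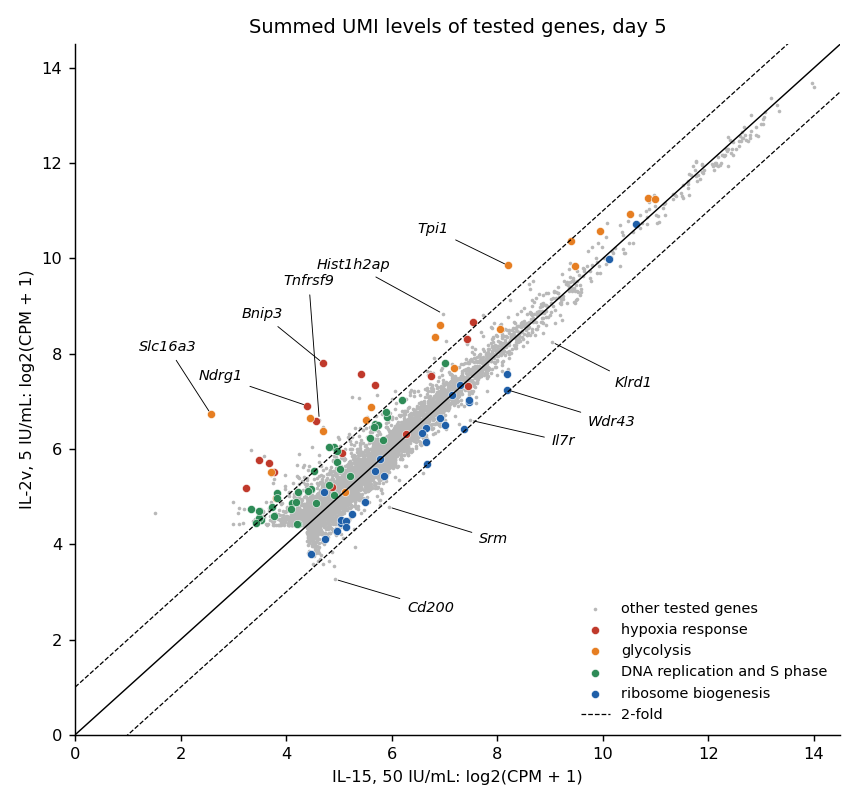
Level of each of the 5701 genes compared in the IL-15 50 IU/mL library (x axis) and the IL-2v 5 IU/mL library (y axis), both as log2(CPM + 1). The solid line marks equality and the dashed lines 2-fold; 104 genes lie on or above the upper dashed line and 8 on or below the lower one.

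The overall response, measured against the day 5 culture without cytokine, was larger with IL-2v than with IL-15. With IL-2v, 572 genes were at least 2-fold higher than without cytokine (9.75% of 5869) and 154 were at least 2-fold lower (2.62%). With IL-15, 330 genes were at least 2-fold higher (5.82% of 5673) and 108 were lower (1.9%). The root mean square differences from the culture without cytokine were 0.755 and 0.618. The libraries were thus nearest neighbours, while their numbers of genes past 2-fold from the culture without cytokine, 726 and 438, were not near equal. Both comparisons use the same control library. Under TMM scaling (trimmed mean of M values) the median of all genes moved from 0.08 to -0.07 for IL-2v and from 0.01 to -0.10 for IL-15, and the counts were 466 higher and 217 lower for IL-2v and 273 higher and 144 lower for IL-15. The share of higher genes among those past 2-fold then went from 78.8% to 68.2% and from 75.3% to 65.5%.

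The receptor chains and their signalling kinases differed by less than 2-fold between the cultures. None of 17 members of the IL-2 and IL-15 receptor signalling list was 2-fold apart, as for 98.0% of all genes, with differences between -0.48 and 0.43 and a median of 0.10. The list also holds chains of other cytokine receptors (Il18r1, Il18rap, Il12rb2, Il4ra and Il21r), and its median is the value of Il18rap. Il2ra, the alpha chain of the IL-2 receptor and itself a STAT5 target, was at 126 CPM (95% Poisson interval 121 to 132) with IL-2v and 111 (107 to 115) with IL-15, against 34.0 without cytokine and 5.63 in naive cells. Il2rb, the shared beta chain, was at 366 CPM (357 to 375) and 325 (317 to 332), and Il2rg, the shared gamma chain, at 248 (241 to 256) and 280 (274 to 287). Poisson intervals cover counting error only. The differences of these chains were 0.19, 0.17 and -0.17, larger than the counting error and far under 2-fold. That of Il2ra was -0.04 within cycling cells and 0.39 within the others. Of the kinases, Jak1 was level (0.02) and Jak3 was higher with IL-2v (0.31). Of the STAT5 genes, Stat5b was higher (0.40) and Stat5a lower (-0.11). The lowest member was Il18r1, a chain of the IL-18 receptor, at 66.4 and 93.3 CPM, and the highest was Tyk2 (0.43).

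STAT5 feedback and target genes leaned towards IL-2v. Of 11 compared, 10 were above 0 and 2 reached 2-fold (1.82% of all genes), with a median difference of 0.34 against 0.07 for all genes. Cish is a STAT5-induced inhibitor of cytokine and T cell receptor signals. It was at 73.3 CPM (69.4 to 77.3) in the IL-2v library and 31.2 (28.9 to 33.5) with IL-15, against 10.7 without cytokine. Its difference was 1.21 over all cells, 0.93 within cycling cells, under 2-fold, and 1.38 within the others. Dusp6, a phosphatase that limits ERK signalling, was at 42.7 and 14.8 CPM (difference 1.47), against 8.57 without cytokine. The other 9 members lay between -0.05 and 0.52. Socs2, another feedback inhibitor, was at 75.7 and 72.4 CPM (8.26 without cytokine), the growth regulator Myc at 209 and 146, and the survival kinase gene Pim1 at 358 and 291 (89.5 without cytokine). Set against the culture without cytokine, 8 of 12 members compared were at least 2-fold higher with IL-2v (9.75% of all genes) and 7 of 11 with IL-15 (5.82%), with the control shared. The 12 and 11 members are those that reached 20 CPM in either library of each comparison.

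The Cish promoter is shown because it holds 2 copies of the palindrome TTCNNNGAA (a GAS element, the shape of site that STAT proteins bind). It is from RefSeq on GRCm38.p6, chr9:107296499-107296688, plus strand, and runs from 160 bases before the annotated start to 30 after, and both matches, in capitals, lie just after the start. The gene itself is annotated at chr9:107296026-107302784 in GENCODE M21.
Cish: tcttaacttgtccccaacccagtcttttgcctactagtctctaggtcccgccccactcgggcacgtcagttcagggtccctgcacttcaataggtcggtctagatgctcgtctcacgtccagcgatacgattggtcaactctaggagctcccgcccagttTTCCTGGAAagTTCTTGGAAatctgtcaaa
A match is a description and shows no binding. Promoters of 300 bases (250 before to 50 after the start) could be matched for 4593 of the 5701 genes, with 5862 promoters in all, and for 72 of the 104 higher genes, with 94 promoters. The GAS element was in 6.94% of all these promoters, in 7.45% of those of the higher genes and in 8.33% of the 12 promoters of the STAT5 list, which is the Cish promoter alone. It was also in 3 of the 10 promoters of the lower genes.

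Genes of the response to low oxygen made up the clearest difference and were higher with the low dose of IL-2v. Of 16 hypoxia response genes compared, 10 were at least 2-fold higher with IL-2v and none lower, with a median of 1.71, against 1.82% of all genes. Bnip3, a mitophagy receptor and classic HIF-1 target, was at 223 CPM (216 to 230) in the IL-2v library and 24.8 (22.8 to 26.9) with IL-15, a difference of 3.12 (counting interval ± 0.13). Ndrg1, a stress-responsive gene of the same response, was at 119 (114 to 124) and 20.01 (18.2 to 21.9) CPM, and Mxi1, an antagonist of MYC, at 53.9 and 10.2. Egln3, a prolyl hydroxylase that marks HIF for destruction, was at 51.1 and 11.8 CPM (difference 2.02), and P4ha1, a collagen prolyl hydroxylase subunit, at 94.7 and 22.5 (2.02). Ero1l, an oxidase of the endoplasmic reticulum, was at 189 and 41.9 (2.14), and Plod2, a collagen lysyl hydroxylase outside the list, at 61.6 and 9.06 (2.64). Among members below 2-fold, named after their values were seen, Hif1a, which encodes the oxygen-regulated subunit of HIF-1, was nearly equal at 159 and 173 CPM, Ddit4 was at 78.0 and 76.4, and Bnip3l at 314 and 170. Bnip3 has a near-identical stretch in a noncoding RNA gene elsewhere and shares 22.3% of its exonic bases with a gene on the opposite strand, so part of its count could be assigned differently.

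Nearly all glycolysis genes were higher with IL-2v, by different amounts. Of 19 genes compared, 18 were above 0, 10 were at least 2-fold higher with IL-2v (1.82% of all genes) and none was 2-fold lower, with a median of 1.10. The largest difference of any gene at 50 CPM or more was that of Slc16a3, a lactate exporter (MCT4), at 106 CPM (101 to 110) in the IL-2v library and 4.94 (4.08 to 5.93) with IL-15, a difference of 4.17 ± 0.27. Pfkl, a subunit of the phosphofructokinase that commits sugar to glycolysis, was at 99.8 (95.3 to 104) and 20.9 (19.1 to 22.9) CPM (2.20). Slc2a1, a glucose transporter, was at 44.8 and 12.1 (1.81). The other genes of the list were named after their values were seen. The transporter Slc2a3 (1.28), the hexokinases Hk1 (1.10) and Hk2 (1.69), Pfkp (1.54), the regulator Pfkfb3 (1.17), the isomerase Tpi1 (1.65) and the mutase Pgam1 (1.69) were past 2-fold. Gapdh (0.26), Aldoa (0.42), Pgk1 (0.41), Gpi1 (0.38), Eno1 (0.46) and Pkm (0.63) were higher by less, and Ldha, which makes lactate, was at 1316 and 674 CPM (0.96). The related transporter Slc16a1 was nearly equal, at 33.0 and 33.8 CPM.

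Slc16a3 and Bnip3 are shown with their promoters because they differed most of all genes that reached 50 CPM. Both are from RefSeq on GRCm38.p6 and run from 160 bases before the annotated start to 30 after, Slc16a3 at chr11:120948907-120949096 on the plus strand and Bnip3 at chr7:138909477-138909666 on the minus strand. GENCODE M21 places the genes at chr11:120948480-120960868 and chr7:138890836-138909519. Capitals mark ACGTG or GCGTG on either strand, the core letters of sites bound by HIF. The pair of matches that overlap within CACGTG in Bnip3 is also an E-box, a site type shared with MYC.
Slc16a3: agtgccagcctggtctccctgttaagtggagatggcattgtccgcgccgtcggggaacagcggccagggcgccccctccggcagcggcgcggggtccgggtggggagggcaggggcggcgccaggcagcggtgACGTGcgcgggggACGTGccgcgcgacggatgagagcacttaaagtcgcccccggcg
Bnip3: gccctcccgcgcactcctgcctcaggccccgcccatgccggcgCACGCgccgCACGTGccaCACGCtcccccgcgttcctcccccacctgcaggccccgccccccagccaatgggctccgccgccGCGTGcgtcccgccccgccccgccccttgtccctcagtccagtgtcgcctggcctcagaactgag
The Slc16a3 window held 2 matches and the Bnip3 window 5. These letters are common in promoters: they were in 65.3% of the 5862 promoters of all genes compared and in 64.9% of those of the 104 higher genes. The share was 76.5% in the hypoxia response list and 81.5% in the glycolysis list, but 83.3% in the ribosome biogenesis list, which lay on the other side.

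Across the other day 5 cultures these genes split by cytokine and dose, as the plot of levels by library shows. Slc16a3 was at 145 CPM with IL-2 50 IU/mL and 78.8 with IL-2v 50 IU/mL, against 9.28 with IL-2 5 IU/mL, 2.34 with IL-15 5 IU/mL and 7.21 without cytokine. Bnip3 was at 568 and 254 CPM with the high doses of IL-2 and IL-2v, against 24.4 with IL-2 5 IU/mL, 10.2 with IL-15 5 IU/mL and 14.8 without cytokine. For both genes the low dose of IL-2v thus lay with the high doses of IL-2 and IL-2v, and the high dose of IL-15 lay with the low doses and the culture without cytokine. Against that culture, 13 of 16 hypoxia response genes were at least 2-fold higher with IL-2v 5 IU/mL (9.75% of all genes) and 2 of 12 with IL-15 50 IU/mL (5.82%). For glycolysis the counts were 19 of 19 and 10 of 16, so IL-15 at the high dose was above the culture without cytokine in part of this pathway. These fractions cover unlike sets of genes, since a gene was counted where either library of its comparison reached 20 CPM. Slc16a3, for one, was counted through its level with IL-2v and left out for IL-15.

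**Figure D2:**
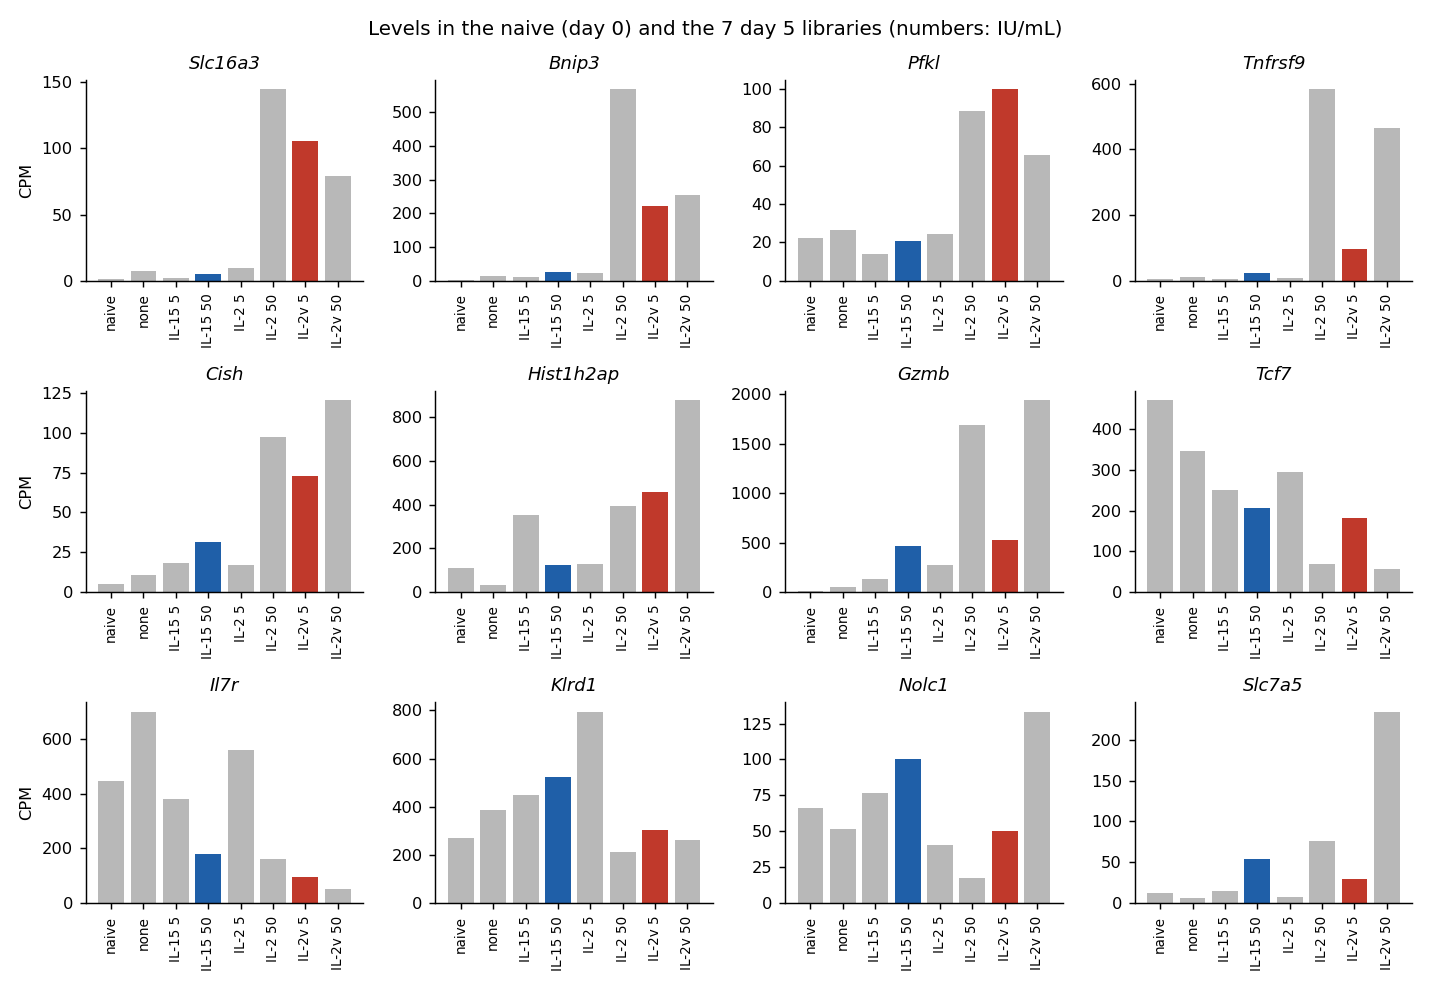
Level in CPM of 12 genes in the naive library and the 7 day 5 libraries, 1 bar per library, with IL-2v 5 IU/mL in red and IL-15 50 IU/mL in blue. Slc16a3, Bnip3 and Pfkl are high in the red bar and low in the blue one, while Gzmb and Tcf7 are at similar height in both.

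Genes of cell division formed the second group that was higher with IL-2v. All 36 genes of DNA replication and S phase compared were above 0, with a median of 0.78, and 11 reached 2-fold, against 3531 of 5701 genes above 0 and 1.82% past 2-fold over all genes. Uhrf1, which carries DNA methylation through replication, was at 65.2 CPM with IL-2v against 27.0 with IL-15 (1.24), and Pola1, the catalytic subunit of the DNA polymerase that starts each strand, at 32.5 and 13.2 (1.24). All 50 genes of G2 and mitosis were also above 0, with a median of 0.63, but only Bub1 (1.17) and Ndc80 (1.06) reached 2-fold. The 17 nucleotide synthesis genes had a median of 0.16; Tk1 (1.11) and Tyms (1.04) reached 2-fold and Rrm2, at 74.8 and 37.1 CPM (0.99), lay just under it. Neither Tk1 nor Tyms was 2-fold apart within cycling cells or within the others. Histone genes of the Hist1 cluster, made in S phase and grouped after their values were seen, were also higher: of 22 symbols compared, all were above 0 and 11 reached 2-fold, with a median of 1.01. Hist1h2ap was at 456 CPM (447 to 466) and 124 (120 to 129), a difference of 1.87; it was at 351 CPM with the low dose of IL-15, above the high dose. Of the 11 past 2-fold, 9 share near-identical sequence with other histone genes, and the level of a single symbol is therefore uncertain.

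Pola1 is shown because its promoter holds an E2F element, the site of the factors that switch on S phase genes (TTTCCCGC or TTTGGCGC on either strand, in capitals). It is from RefSeq on GRCm38.p6, chrX:93632126-93632315, minus strand, 160 bases before the annotated start to 30 after, in a gene that GENCODE M21 places at chrX:93304767-93632155.
Pola1: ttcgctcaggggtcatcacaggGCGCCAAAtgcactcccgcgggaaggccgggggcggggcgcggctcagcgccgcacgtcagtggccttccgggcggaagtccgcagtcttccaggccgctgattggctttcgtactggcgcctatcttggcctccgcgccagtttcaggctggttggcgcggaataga
This element was in 36.4% of the 33 promoters of the DNA replication and S phase list, against 3.58% of all promoters and 6.38% of those of the 104 higher genes. It was in no promoter of the 8 lower genes.

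More cells carried transcripts of the division genes Mki67 or Top2a with IL-2v; they are called cycling cells here. After each cell was thinned to 2000 UMIs, which left out 235 IL-2v and 219 IL-15 cells, Mki67 or Top2a had a UMI in 34.2% of IL-2v cells (95% Clopper-Pearson interval 32.8 to 35.6) and 19.98% of IL-15 cells (18.9 to 21.1). The share was 8.30% without cytokine and 1.83% in naive cells, and without thinning the pair stood at 39.75% and 24.6%. Intervals of shares also cover counting error only. When cells with and without such a UMI were summed apart, the S phase median was 0.54 within the cycling cells and 0.37 within the others, and none of the 39 and 16 members that reached 20 CPM within a class was 2-fold apart there. Uhrf1, under that level in the other cells at 8.08 and 2.70 CPM, differed there by 1.30. The G2 and mitosis median was 0.07 within cycling cells and 0.24 within the others. The hypoxia response median, in contrast, was 1.56 in cycling and 1.78 in other cells, and that of glycolysis was 0.93 and 1.05. Of the 104 higher genes, which were chosen on the same cells, 65 were at least 2-fold higher in the cells without such a UMI and 51 in those with one.

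The hypoxia and glycolysis difference ran through most cells. Per 2000 UMIs, an IL-2v cell had a median of 4 UMIs of the hypoxia response list (quartiles 2 and 6) and an IL-15 cell 2 (1 and 3). Taking 1 cell from each library, the IL-2v cell held more in 74.3% of cell pairs and fewer in 15.1%. For glycolysis the medians were 28 and 17 UMIs, and the IL-2v cell held more in 77.9% of pairs. The distributions overlapped, as the plot of list UMIs per cell shows, and 10.4% of IL-2v cells but 0.358% of IL-15 cells had 40 or more glycolysis UMIs. Bnip3 had a UMI in 33.8% of IL-2v cells (32.5 to 35.2) and 3.95% of IL-15 cells (3.46 to 4.50). At the same depth it had one in 2.98% of cells without cytokine and 0.58% of naive cells. Slc16a3 had one in 19.3% (18.1 to 20.5) and 0.93% (0.70 to 1.22), against 0.22% of naive cells, and Tpi1 in 78.2% and 39.9%, against 5.12%. Among cycling cells Bnip3 had a UMI in 34.8% and 8.68%, and among the others in 33.4% and 2.77%.

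**Figure D3:**
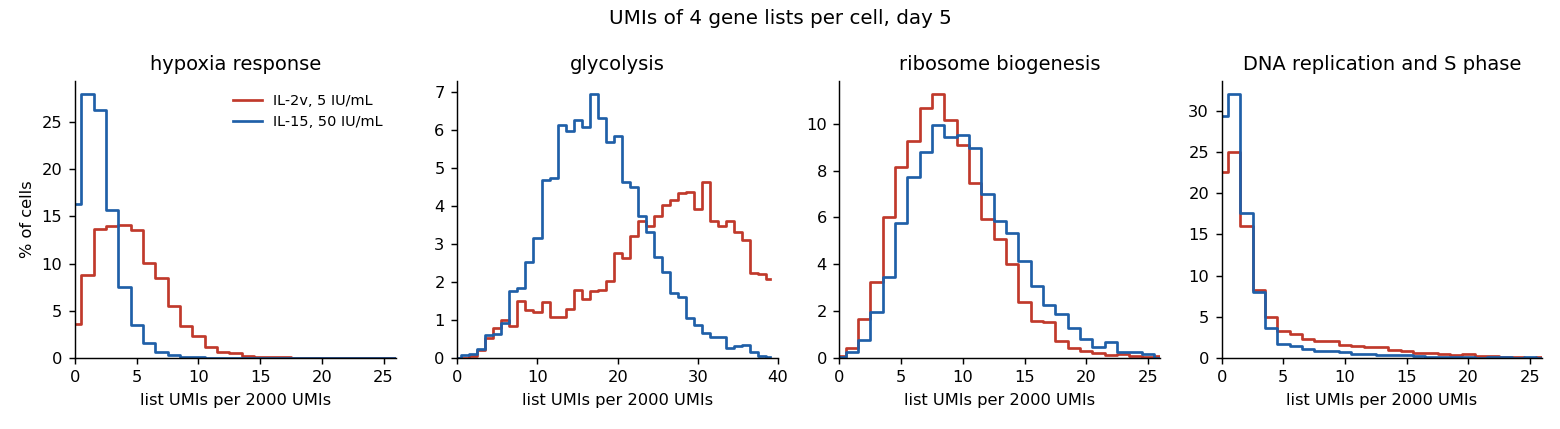
Share of cells (y axis, %) by the number of UMIs of a gene list in a cell thinned to 2000 UMIs (x axis), for IL-2v 5 IU/mL in red (4512 cells) and IL-15 50 IU/mL in blue (5590 cells); the glycolysis axis ends before 40 UMIs. The red curves lie to the right for hypoxia response and glycolysis, and slightly to the left for ribosome biogenesis.

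Among receptors of activated T cells, Tnfrsf9 (4-1BB, a costimulatory receptor induced by activation) stood apart from its group. It was at 96.4 CPM (92.0 to 101) in the IL-2v library and 23.7 (21.8 to 25.8) with IL-15, a difference of 1.98, and had a UMI in 13.9% and 4.01% of thinned cells, against 0.96% of naive cells. With the high doses it was at 582 CPM (IL-2) and 466 (IL-2v), against 10.3 without cytokine. The other 8 costimulatory receptors compared were within 2-fold, such as Tnfrsf18 (GITR), at 202 and 145 CPM.

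Most genes of ribosome biogenesis were higher with IL-15. Of 28 compared, 23 were lower with IL-2v, none by 2-fold (0.14% of all genes), with a median of -0.51 against 0.07 for all genes. Nolc1, a chaperone of nucleolar particles, was at 50.1 CPM (47.0 to 53.5) in the IL-2v library and 100.005 (96.0 to 104) with IL-15 (-0.98), and it was past 2-fold with TMM scaling (-1.04) and among non-cycling cells (-1.18). Gnl3 (nucleostemin) was at 85.1 and 164 (-0.94), and Wdr43, a factor of small subunit assembly, at 151 and 288 (-0.93). The members were not uniform: Fbl, which methylates ribosomal RNA, was at 140 and 139 CPM and Npm1 at 1676 and 1587, both named after their values were seen. Per 2000 UMIs a cell held a median of 8 UMIs of the list with IL-2v, against 10 with IL-15, and the IL-2v cell held fewer in 55.2% of cell pairs. Ribosomal protein genes, which the list leaves out, also took a larger share of UMIs with IL-15 (35.1% against 32.9%). Their part in this difference was not tested. The list median was negative in all 14 alternatives (-0.58 to -0.43). Several of these could not turn this sign. All barcodes repeated the main setting, and a pseudocount keeps every sign. TMM, median of ratios and totals that leave out ribosomal protein and mitochondrial genes lower all differences nearly alike. The median of all genes compared went from 0.07 to 0.002 with the last of these.

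The amino acid transporter genes Slc7a1 and Slc7a5 were also lower with IL-2v. Slc7a1, the arginine transporter, was at 27.1 CPM (24.8 to 29.6) in the IL-2v library and 53.6 (50.7 to 56.7) with IL-15, and Slc7a5, the large neutral amino acid transporter, at 29.3 (26.9 to 31.9) and 53.7 (50.8 to 56.8). The differences were -0.96 and -0.85 over all cells, but -1.27 and -1.38 in the cells without a Mki67 or Top2a UMI, past 2-fold. Without cytokine they were at 14.3 and 6.23 CPM. Srm, which makes the polyamine spermidine and is on no list, was at 26.5 (24.2 to 29.0) and 60.4 (57.3 to 63.6), a difference of -1.16. Over all cells none of the 15 amino acid and one carbon genes reached 2-fold (0.14% of all genes were lower by as much) and 11 were below 0, with a median of -0.10. Mthfd1l, a mitochondrial enzyme of one carbon metabolism, went the other way, at 65.5 and 44.1 CPM (0.56).

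At least 2-fold lower with IL-2v were 8 genes, of which 1 was on a list. This count depended on the scaling: it was 15 with TMM, 13 with median of ratios and 22 with totals that leave out ribosomal protein and mitochondrial genes. The gene on a list was Cd200, an inhibitory ligand of the immunoglobulin family, at 8.63 CPM (7.34 to 10.1) in the IL-2v library and 29.2 (27.1 to 31.5) with IL-15 (-1.65). It had a UMI in 1.53% and 5.94% of thinned cells, against 3.28% without cytokine and 1.66% of naive cells. Cirbp, an RNA-binding protein induced by cold and stress, was at 44.1 and 95.3 CPM. Its difference was -0.90 within cycling cells, under 2-fold, and -1.26 within the others. Apart from Srm and Cirbp, the other lower genes had low levels. Pprc1, St6galnac4, Gm5914, Serpina3f and Bysl had 24.9 to 38.5 CPM with IL-15 and 10.6 to 14.4 with IL-2v. These 5 were named after their values were seen, and Serpina3f shares near-identical sequence with other genes.

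Genes of stemness and memory, the programme that keeps a T cell able to renew itself, were at similar levels, as most genes were. None of 13 compared was 2-fold apart, as for 98.0% of all genes, 8 were lower and 5 higher with IL-2v, and the median was -0.16. Tcf7, which encodes the stem-like factor TCF1, was at 183 CPM (177 to 189) in the IL-2v library and 206 (200 to 212) with IL-15, below the 348 without cytokine and the 471 of naive cells. Lef1, its relative, was at 225 (218 to 232) and 270 (263 to 277), and Bach2, a repressor of effector genes, at 62.2 and 71.3. Tcf7 had a UMI in 28.2% of IL-2v cells (26.9 to 29.6) and 31.8% of IL-15 cells (30.6 to 33.1). Bcl2, a survival gene on the same list, was at 813 and 600 CPM, against 60.8 without cytokine. The member furthest apart was Il7r, the receptor chain for the survival cytokine IL-7, at 96.3 CPM (91.8 to 101) and 178 (173 to 184), a difference of -0.88. Il7r was far above both in the culture without cytokine (700 CPM) and had a UMI in 16.4% and 28.0% of cells, against 68.3% without cytokine.

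The list of lymph node homing and quiescence leaned slightly towards IL-15, and the cytotoxic genes compared were level as a list. Of 11 genes of lymph node homing and quiescence, 9 were lower with IL-2v, against 2170 of all 5701 genes. None was lower by 2-fold (0.14% of all genes), and the median was -0.23, against 0.07 for all genes. Furthest apart were Il6ra (-0.75), Cd7 (-0.60) and Klf3 (-0.34). The homing receptor gene Ccr7, named after its values were seen, did not share this lean. It had a UMI in 21.1% of IL-2v and 19.1% of IL-15 thinned cells. Of 18 genes in the list of cytotoxic effector molecules, 8 reached the level for comparison. Their median was -0.01, with 4 above and 4 below 0. They were Gzmb, Nkg7, Srgn, Ctsc, Ctsw, Lamp1, Serpinb9 and Serpinb6b, and Gzmb (0.19) was the only granzyme gene among them. The other genes of the list were too low to be compared, so the median does not cover them. Gzmb (granzyme B) was at 526 CPM (515 to 536) in the IL-2v library and 462 (453 to 471) with IL-15, against 47.2 without cytokine, and had a UMI in 53.7% and 51.5% of cells against 0.74% of naive cells. Nkg7, a granule protein, was at 586 and 573 CPM, and Srgn, the granule proteoglycan, at 390 and 487. The 3 genes compared from the NK receptor list were all lower with IL-2v, led by Klrd1 (CD94), at 302 CPM (295 to 310) and 522 (513 to 532). Klrd1 had a UMI in 39.8% and 59.4% of cells, against 36.7% of naive cells. The others were Klrk1 (-0.54) and Cd7 (-0.60), the latter also counted in the homing and quiescence list. The plot of list members sets the lists with at least 5 members compared side by side, which leaves out the NK receptors.

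**Figure D4:**
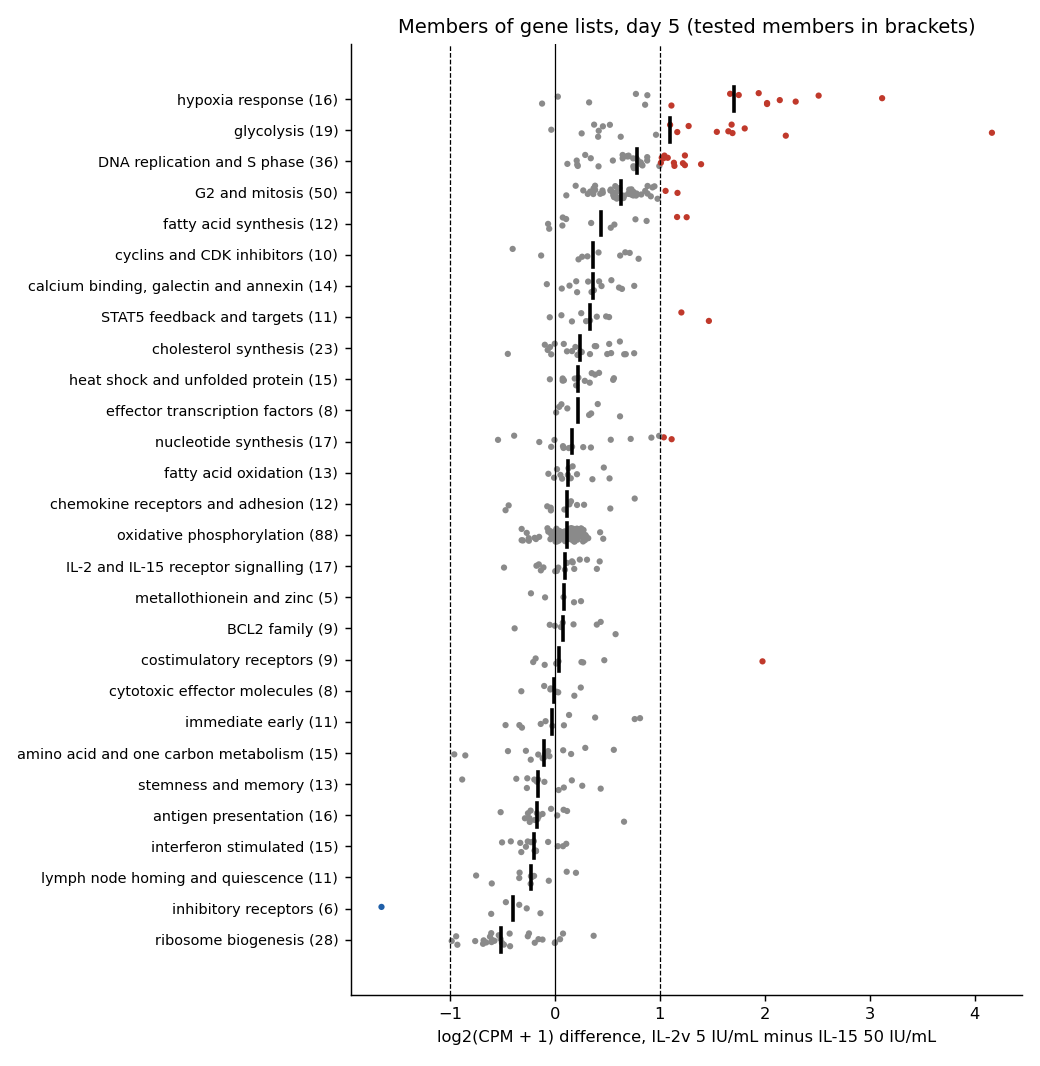
Difference (x axis, log2(CPM + 1), IL-2v 5 IU/mL minus IL-15 50 IU/mL) of each member compared (points) in 28 gene lists with at least 5 members, with the list median as a bar; red and blue points are at least 2-fold higher or lower, between the dashed lines are the others. Hypoxia response (median 1.71) and glycolysis (1.10) lie furthest to the right and ribosome biogenesis (-0.51) furthest to the left.

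On day 3 the same contrast was smaller, and the genes called on day 5 nearly all had the same sign. At 20 CPM or more, 22 of 5780 genes were at least 2-fold higher with IL-2v (0.381%) and 0 were lower (0%). Of all 5701 genes compared on day 5, 2474 were above 0 on day 3 and 3227 below, with a median of -0.03. Of these, 26 were at least 2-fold higher and 0 lower. Of the 104 genes higher on day 5, 103 were also above 0 on day 3 and 23 by at least 2-fold. Slc16a3 was at 111 CPM with IL-2v and 25.4 with IL-15 on day 3, and Bnip3 at 164 and 42.9. All 8 lower genes were below 0, none by 2-fold. The list medians on day 3, over members that reached 20 CPM on that day, were 0.91 for hypoxia response, 0.61 for glycolysis, 0.29 for S phase and -0.21 for ribosome biogenesis.

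On day 10 the contrast was larger, and the hypoxia and glycolysis genes had the opposite sign. At least 2-fold higher with IL-2v were 419 of 5493 genes (7.63%) and at least 2-fold lower 95 (1.73%). Of the 104 genes higher on day 5, 46 were still above 0 and 58 were below, while the median on day 10 over all genes compared on day 5 was 0.11. The 20 hypoxia and glycolysis genes among them were all below 0, 14 by at least 2-fold, with a median of -1.26. Slc16a3 went to 7.41 CPM with IL-2v, against 57.2 with IL-15, and Bnip3 to 19.0 and 145. The 15 cell division and nucleotide genes among the 104 were all at least 2-fold higher with IL-2v on day 10, with a median of 1.85, as was Hist1h2ap (1619 and 63.1 CPM). The median of ribosome biogenesis genes also had the opposite sign: all 29 compared were higher with IL-2v on day 10, with a median of 0.69. Libraries of other days are no replicates of day 5, and the change between days was not tested.

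**Figure D5:**
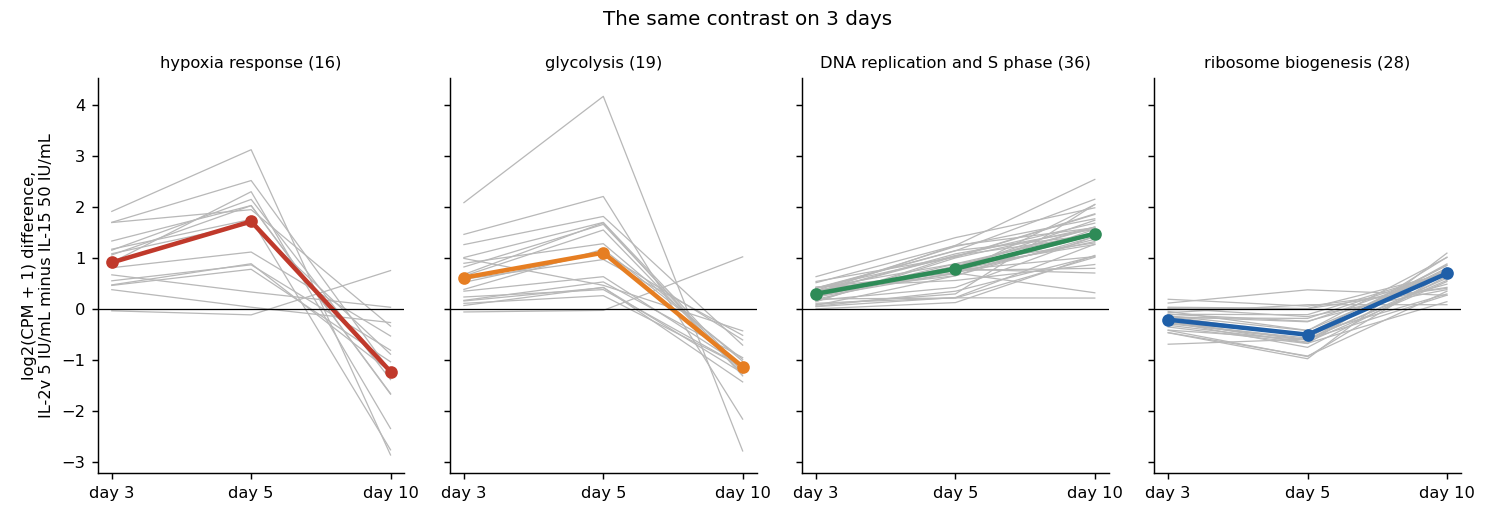
Difference (y axis, log2(CPM + 1), IL-2v 5 IU/mL minus IL-15 50 IU/mL) on days 3, 5 and 10 for the members of 4 lists that were compared on day 5 (grey lines, number in brackets), with the median over the members that reached 20 CPM on each day (coloured). The medians of hypoxia response and glycolysis pass from above 0 on day 5 to -1.23 and -1.14 on day 10, while that of S phase stays above 0.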

How the data were processed

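The authors deposited raw counts, 1 table per library, of UMIs per gene symbol and cell barcode; all values were whole and every table listed the same 17516 symbols. Cell Ranger, Seurat 4.0.1 and 3.0.2 and the genome build mm10 are named in the submitters' processing notes; filters, annotation and strand setting are not given in the sources used here. Kept were cells with no fewer than 1000 UMIs and 500 genes and no more than 10% of UMIs from mitochondrial genes, which removed no cell of this pair, and no doublet caller was run. UMIs were summed over cells and scaled to CPM. Genes at 20 CPM or more in either library were compared on log2(CPM + 1), and at least 2-fold means a log2 difference of at least 1. The 2-fold rule was tried on simulated counts that held counting error alone. No variation between cultures was simulated, and the changed genes were set above 20 CPM and past 2-fold. Cases near these limits were therefore not covered. Alternative scalings used edgeR 4.0.16 for TMM.

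The pair, the gene lists and the choice of results were made with earlier results of these data known, so no list is independent support. Genes were named by a rule: the 12 highest and 12 lowest differences among genes at 50 CPM or more, the 3 members furthest apart of each of 31 lists, and all members at 20 CPM or more of the stemness, receptor signalling, STAT5 and cytotoxic lists. The text says where a name outside it was chosen after its values were seen. Copies were sought with BLAST+ 2.17.0 among GENCODE M21 transcripts (GRCm38), at 95% identity over 200 bases or more. Promoters are from RefSeq. Some genes are not reported here.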

Additional observations from a re-analysis of the deposited data

Results flagged for a closer look

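For 4 gene lists the median difference between IL-2v 5 IU/mL and IL-15 50 IU/mL had opposite signs on days 5 and 10, with at least 0.5 in size on both. Each day has 1 library per condition, so the change between days was not tested. The median of hypoxia response was 1.71 on day 5 and -1.23 on day 10, and that of glycolysis 1.10 and -1.14. The median of ribosome biogenesis was -0.51 and 0.69. The median of the NK receptors, a list of which 3 members were compared on each day, was -0.60 and 0.69. Over 14 alternatives the day 5 median of this list ran from -0.69 to -0.03. Klrd1 went from -0.79 to 0.79 and Cd7 from -0.60 to -1.24, so this list did not turn as a whole.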

How the results depend on the processing

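Over 12 alternatives, none of the 28 named genes at least 2-fold apart changed sign, while 18 of all 136 named genes did. Among these were Il2ra (-0.04) and Birc5 (-0.04) within cycling cells and Nkg7 (-0.03) with TMM scaling. Several alternatives could not turn a 2-fold difference. All barcodes gave the main setting again, since the filter removed no cell of this pair, and a pseudocount keeps every sign. The scalings moved all genes nearly alike, with a median of 0.01 under TMM against 0.07. Against 104 higher and 8 lower genes, the lower genes numbered 15 with TMM scaling, 13 with median of ratios and 22 with totals that leave out ribosomal protein and mitochondrial genes. A pseudocount of 10 CPM gave 48 higher and 1 lower and a distance between the libraries of 0.271. No expression filter gave 178 and 30, a minimum of 100 CPM gave 20 and 0, and cycling cells alone gave 56 higher genes. Over 14 alternatives the glycolysis median ran from 0.63 to 1.16 and that of hypoxia response from 1.29 to 1.78. The cycling shares of IL-2v and IL-15 cells were 27.3% and 14.7% at 1000 UMIs, 39.75% and 24.6% without thinning, and 65.8% and 45.8% with at least 3 UMIs of the G2 and mitosis list, a rule that also took in 40.1% of naive cells and, above IL-15, 59.9% of those without cytokine. The S phase list gave 36.2% and 20.9%, against 23.5% of naive cells and 20.2% without cytokine. Against the culture without cytokine, the pseudocount of 10 gave 89 lower genes for IL-2v and 214 higher and 59 lower for IL-15. No filter gave 1208 higher and 291 lower genes for IL-2v, and for IL-15 it gave 832 higher and 182 lower; totals without ribosomal and mitochondrial genes gave 515 higher for IL-15. Of the genes higher on day 5, 100% were above 0 on day 3 with TMM scaling, and of those at least 4-fold higher 100% were on day 3 and 0% on day 10. Leaving out cells above 5% mitochondrial UMIs took 26.1% of IL-2v and 39.8% of IL-15 cells and gave 90 higher and 8 lower genes. The causes of these shifts were not tested, apart from the smaller and larger sets of genes that the filters set. No paired analysis was possible because each condition has 1 library.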

Other observations

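On day 5 the fatty acid synthesis list had a median of 0.44 over 12 genes, with 2 at least 2-fold higher with IL-2v (1.82% of all genes): Scd1, the desaturase that makes oleate, at 57.6 CPM with IL-2v and 23.5 in the IL-15 library, and Fads2, another desaturase, at 38.0 and 16.4. Within cycling cells neither was 2-fold apart, with differences of 0.90 and 0.54, and the list median was 0.23. Within the others the differences were 1.17 and 1.60, with Fads2 low at 13.9 and 3.89 CPM, and the list median was 0.20. The 23 cholesterol synthesis genes had a median of 0.24 and none reached 2-fold. In each culture the cholesterol list was above the culture without cytokine: 21 of 22 cholesterol genes compared were at least 2-fold higher with IL-2v (9.75% of all genes), as were 20 of 22 in the IL-15 library (5.82%). On day 10 the cholesterol list had a median of 2.52, with 22 of 23 genes at least 2-fold higher with IL-2v (7.63% of all genes), and Scd1 was at 32.9 and 0.22 CPM. Scd1 was the 1 gene of the 104 that was not above 0 on day 3 (62.1 and 63.4 CPM).

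Ifitm1, an interferon-inducible membrane protein gene, was at 147 CPM in the IL-2v culture and 65.7 in the IL-15 culture on day 5, with a UMI in 8.62% and 4.70% of thinned cells, and at 450 and 110 CPM on day 10. On day 3 it was low in both (4.78 and 4.39 CPM). The interferon stimulated list did not share this direction: 12 of 15 members compared on day 5 were lower with IL-2v, against 2170 of all 5701 genes. Its median was -0.20, against 0.07 for all genes. Of the 104 higher genes, 63 were in no list, and all 63 were above 0 on day 3, while 37 were below 0 on day 10. Of all 5701 genes compared on day 5, 2474 were above 0 on day 3 and 2279 below 0 on day 10. Ak4, a mitochondrial adenylate kinase chosen after its values were seen, was at 24.2 and 1.85 CPM.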
